A study of Mus musculus with 6 samples.

Results

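The genes described here encode the receptors for glutamate, GABA and glycine in NSC-34 cells. They were chosen by symbol alone, as the genes named Gria, Grik, Grid, Grin and Grm (glutamate), Gabr and Gabbr (GABA) and Glra and Glrb (glycine), which gave 52 of the 23038 genes listed in every library. NSC-34 cells are hybrids of mouse neuroblastoma and spinal motor neurons and are used as a motor neuron-like line. mRNA-seq was performed on 6 libraries of these cells, 3 treated with control siRNA (siNC) and 3 with siRNA against Qk (siQk), the gene of the Quaking RNA-binding proteins, which act in splicing, stability and transport of mRNA. Both groups were grown in DMEM medium with serum and were transfected, and poly-A RNA was made into libraries that do not keep strand. For the KD, 3 different siRNAs against Qk were used, and which library received which is not given, so siRNA and replicate cannot be told apart within siQk.

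Glutamate opens 3 kinds of channel, named AMPA, kainate and NMDA receptors after the compounds that activate them, and also acts on G protein-coupled metabotropic receptors. GABA opens the chloride channels of GABA-A receptors and activates the G protein-coupled GABA-B receptor, while glycine opens chloride channels of its own and is a co-agonist at NMDA receptors. Each channel is assembled from several subunits, so the transcripts present set which receptors a cell can build. Spinal motor neurons are excited through AMPA, kainate and NMDA receptors and inhibited through glycine and GABA-A receptors, and AMPA receptors that lack the GluA2 subunit pass calcium.

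The receptor families differed in whether any transcript was found at all. In these cells, kainate and NMDA subunits together gave most of the receptor counts, with 15688 and 20283 counts summed over the 6 libraries. GABA-A and GABA-B receptors gave 8601 and 6579 counts. The AMPA receptor genes gave 1 count in all, the 8 metabotropic glutamate receptor genes 297 and the 5 glycine receptor genes 65. After KD, none of the 10 receptor genes with enough counts to be tested passed the threshold.

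The windows around the transcription start sites of 5 of these genes are shown because they are the leading genes of the kainate, NMDA and GABA-B families beside a GABA-B partner and an AMPA subunit that were nearly absent. Each runs from 250 bases before the start to 50 after it in the RefSeq annotation of GRCm38.p6, is read 5′ to 3′ on the strand of the gene, and has every CG dinucleotide in capitals.
Grik5 promoter, chr7:25072320-25072619, minus strand: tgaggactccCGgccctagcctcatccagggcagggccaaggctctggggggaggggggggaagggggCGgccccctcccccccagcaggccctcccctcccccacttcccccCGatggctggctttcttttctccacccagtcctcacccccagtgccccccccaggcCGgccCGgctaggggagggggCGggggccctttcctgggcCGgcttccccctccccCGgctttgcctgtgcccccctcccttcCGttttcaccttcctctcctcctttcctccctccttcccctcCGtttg
Grin1 promoter, chr2:25319138-25319437, minus strand: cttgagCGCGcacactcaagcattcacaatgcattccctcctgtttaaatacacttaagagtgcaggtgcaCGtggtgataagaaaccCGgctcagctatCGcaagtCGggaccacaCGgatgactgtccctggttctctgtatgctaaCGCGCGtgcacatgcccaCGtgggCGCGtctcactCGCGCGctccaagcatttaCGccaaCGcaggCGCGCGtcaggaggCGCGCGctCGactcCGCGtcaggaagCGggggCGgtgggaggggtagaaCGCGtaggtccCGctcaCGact
Gabbr1 promoter, chr17:37045716-37046015, plus strand: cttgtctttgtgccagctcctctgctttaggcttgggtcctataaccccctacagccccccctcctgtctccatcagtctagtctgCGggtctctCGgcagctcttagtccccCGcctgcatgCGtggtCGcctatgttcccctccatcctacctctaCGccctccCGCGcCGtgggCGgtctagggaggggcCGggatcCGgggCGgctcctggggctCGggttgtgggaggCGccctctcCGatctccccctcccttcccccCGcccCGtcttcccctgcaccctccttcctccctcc
Gabbr2 promoter, chr4:46991665-46991964, minus strand: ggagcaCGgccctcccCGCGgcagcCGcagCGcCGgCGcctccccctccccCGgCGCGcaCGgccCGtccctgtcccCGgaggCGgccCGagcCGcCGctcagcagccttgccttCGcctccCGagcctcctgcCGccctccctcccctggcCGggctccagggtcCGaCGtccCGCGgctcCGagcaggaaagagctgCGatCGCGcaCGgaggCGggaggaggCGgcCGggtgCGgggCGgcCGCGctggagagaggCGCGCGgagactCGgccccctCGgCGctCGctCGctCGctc
Gria2 promoter, chr3:80802786-80803085, minus strand: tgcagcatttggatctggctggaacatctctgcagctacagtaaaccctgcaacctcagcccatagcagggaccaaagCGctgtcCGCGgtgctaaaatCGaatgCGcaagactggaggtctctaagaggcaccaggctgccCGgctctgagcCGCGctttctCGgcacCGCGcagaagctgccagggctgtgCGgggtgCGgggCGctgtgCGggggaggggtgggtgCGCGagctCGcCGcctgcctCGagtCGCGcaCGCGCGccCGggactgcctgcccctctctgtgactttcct
The Grik5 window held 10 CG dinucleotides and that of Grin1 33. The Gabbr1 window held 18 and the window of its partner Gabbr2 46. That of Gria2 held 26, so the genes that were nearly absent did not have the fewest. Over the receptor genes with a window in RefSeq, the median was 18 for the 7 windows of tested genes, between 3 and 50, and 4 for the 11 windows of genes at 0 in every library. Over all genes of the files, these medians were 20 for tested genes and 2 for genes at 0. The letters GGGCGG, searched on both strands, were found in 71.4% of the 7 windows, in 27.3% of the 11, and in 35.7% of all promoter windows of this length. The same share was 62.6% for windows of all tested genes and 14.1% for windows of all genes at 0.

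The 6 libraries held between 43000503 and 53565950 gene-assigned counts, with 16057 to 16516 genes above 0. Levels are given as RPKM, the counts divided by the exon length of the gene and by the library total. Qk itself measured 9.68, 8.18 and 14.9 RPKM in siNC replicates 1, 2 and 3, and 1.39, 1.71 and 1.11 RPKM in the siQk replicates. The groups did not overlap, and the siQk mean was 12.8% of the siNC mean (log2 fold change −2.997, SE 0.34, adjusted p = 0.0149, edgeR quasi-likelihood test). Without siNC replicate 1, the log2 fold change was −3.09 and Qk was not called (adjusted p = 0.125, same test). Principal components of the tested genes set siNC replicate 3 and siQk replicate 2 apart from the other libraries. Of the motor neuron markers, Chat, Slc5a7 (up to 0.0238 RPKM) and Mnx1 (up to 0.0944 RPKM) were near 0 in these cells. The sympathetic neuroblastoma markers Phox2a and Hand2, by contrast, averaged 119.6 and 162.5 RPKM. Chat had too few counts to be tested, with 0.0297 to 0.0777 RPKM in siNC and 0.0997 to 0.141 in siQk. These ranges did not overlap, as for 8.84% of all tested genes. The summed level of the 8 motor neuron markers was 10.3 to 11.9 RPKM in siNC and 14.8 to 17.3 in siQk, and 4 of them were tested. Most of the difference in this sum lay in Isl1, a homeodomain factor of motor neurons. Isl1 was 4.79 RPKM in siNC and 8.59 in siQk (log2 fold change 0.82, SE 0.10, unadjusted p = 0.00101, adjusted p = 0.9996), and Lhx4 was 0.411 and 0.876 RPKM (unadjusted p = 0.0256). The other tested markers, Slc18a3 and Isl2, averaged 1.97 and 3.73 RPKM, with log2 fold changes of −0.09 (SE 0.21) and 0.21 (SE 0.30). The part of these differences in the receptor values was not tested.

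Of the 52 receptor genes, 10 (19.2%) passed the filter of a mean log2 CPM (counts scaled to the library total) above 0 and were tested, against 55.0% of all listed genes. A further 24 (46.2%) had at least 1 count but stayed under the filter, against 23.1% of all genes. The other 18 (34.6%) were at 0 in all libraries, against 21.9% of all genes. In bulk RNA, fewer cells expressing a gene and less RNA per cell cannot be told apart, so a low level here is a mean over the culture.

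**Figure D1:**
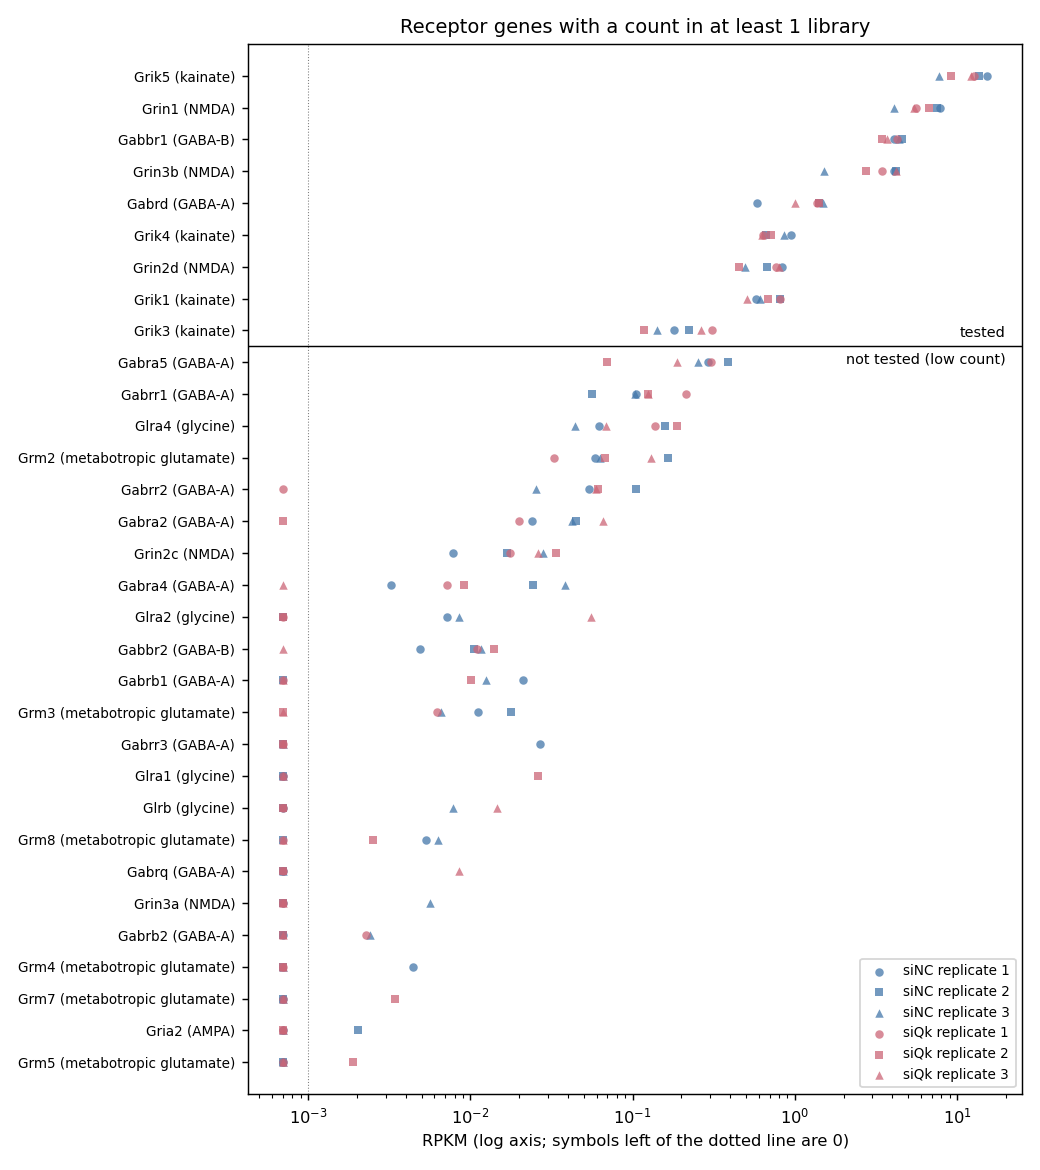
A set of 32 receptor genes with a count in at least 1 library is plotted by their RPKM on a log axis, with 1 symbol per library, siNC in blue and siQk in red. The 9 tested genes shown stand above the line, from Grik5 at 11.9 RPKM on average to Grik3 at 0.205, and the 23 genes below it did not exceed 0.387 RPKM in any library.

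Kainate receptors were the family with the highest summed level. Grik5 encodes GluK5, a high-affinity subunit that needs GluK1, GluK2 or GluK3 to form a channel, and lies at chr7:25009849-25072346 on the minus strand. It measured 15.4, 13.7 and 7.80 RPKM in the siNC replicates and 12.8, 9.24 and 12.2 RPKM in the siQk replicates. The highest and the lowest library were both siNC, and the groups overlapped. Its mean level exceeded that of 53.1% of the tested genes. Relative to siNC, its log2 fold change was −0.12 (SE 0.32, 95% interval −1.004 to 0.757, adjusted p = 0.9996). This value was 0.066 without siNC replicate 1 and −0.35 without siNC replicate 3.

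The other kainate receptor genes were far lower. Grik4, which encodes the other high-affinity subunit GluK4, ranged from 0.628 to 0.951 RPKM. Grik1, which encodes GluK1, ranged from 0.505 to 0.816 RPKM. Grik3, which encodes GluK3, ranged from 0.118 to 0.308 RPKM and was tested through its long transcript, with 54 to 124 counts per library. Grik2, which encodes GluK2, was at 0 in all libraries, which allows up to 0.0019 RPKM if 3 counts over all libraries are taken as the limit. Grik5 thus made up 82.9% to 90.0% of the summed kainate RPKM in each library.

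The KD left the kainate family without a detected difference. Summed over its genes, siNC reached 14.0 ± 4.04 RPKM and siQk 13.0 ± 1.97 (SD, n = 3 each), with p = 0.7 in a two-sided exact permutation test whose smallest p is 0.1 with 3 against 3 libraries. Grik4 had a log2 fold change of −0.35 (SE 0.18, 95% interval −0.84 to 0.14) with no siQk library above the siNC mean. Grik3 had a log2 fold change of 0.32 (SE 0.45, 95% interval −0.93 to 1.56), which was 0.048 without siQk replicate 1 and 0.63 without siQk replicate 2, and that of Grik1 was −0.01 (SE 0.24). The intervals of all 3 genes include 0.

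NMDA receptors need GluN1, the glycine-binding subunit encoded by Grin1, together with GluN2 subunits that bind glutamate or GluN3 subunits that bind glycine. Grin1, at chr2:25291181-25319187 on the minus strand, measured 7.89, 7.48 and 4.07 RPKM in the siNC replicates and 5.56, 6.73 and 5.41 RPKM in the siQk replicates. As for Grik5, siNC held both the highest and the lowest library. The log2 fold change was −0.15 (SE 0.30, 95% interval −0.98 to 0.67, adjusted p = 0.9996).

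Of the GluN2 genes, Grin2d alone was tested. Grin2d, which encodes GluN2D, a subunit prominent in the embryonic nervous system, ranged from 0.456 to 0.829 RPKM. Its log2 fold change was −0.00 (SE 0.33, 95% interval −0.91 to 0.91). Grin2a and Grin2b, which encode the main GluN2 subunits of the forebrain, were at 0 in all libraries, with upper limits of 0.00255 and 0.00139 RPKM. Grin2c gave 31 counts over the 6 libraries, at 0.0217 RPKM on average.

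The second NMDA gene by level was Grin3b, which encodes GluN3B, a subunit known from motor neurons. It measured 4.11, 4.23 and 1.52 RPKM in the siNC replicates and 3.45, 2.74 and 4.18 RPKM in the siQk replicates. siNC replicate 3 was the lowest library, and Grin3b had the widest 95% interval of the tested receptor genes, from −1.30 to 1.43 around a log2 fold change of 0.06. Grin3a, the other GluN3 gene, gave 1 count in all. Within the family, Grin1 made up 51.9% to 67.6% of the summed RPKM, Grin3b 24.9% to 40.1% and Grin2d 4.58% to 8.07%. The summed NMDA level was 10.45 ± 3.76 RPKM in siNC and 10.1 ± 0.327 in siQk (SD, n = 3 each, p = 1.0, exact permutation test).

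Both Grin1 and Grin3b share exon sequence with a gene on the opposite strand, and libraries without strand cannot assign the reads of the shared stretch. In the annotation, 1307 exon bases of Grin1 (13.5% of its exon bases) lie in Grin1os, an antisense RNA, whose RPKM stayed between 0.75 and 0.781 of that of Grin1 in every library. Grin3b, at chr10:79970715-79977190 on the plus strand, shares 1059 of its exon bases (32.1%) with Tmem259, which measured 65.6 to 93.5 RPKM and was also lowest in siNC replicate 3. The levels of Grin1 and Grin3b are therefore uncertain by the share of reads that came from the partner, and how the counting program split them was not tested. Grin2d likewise shares 643 bases (9.66%) with the antisense gene Gm45441, which the files do not list by that name.

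**Figure D2:**
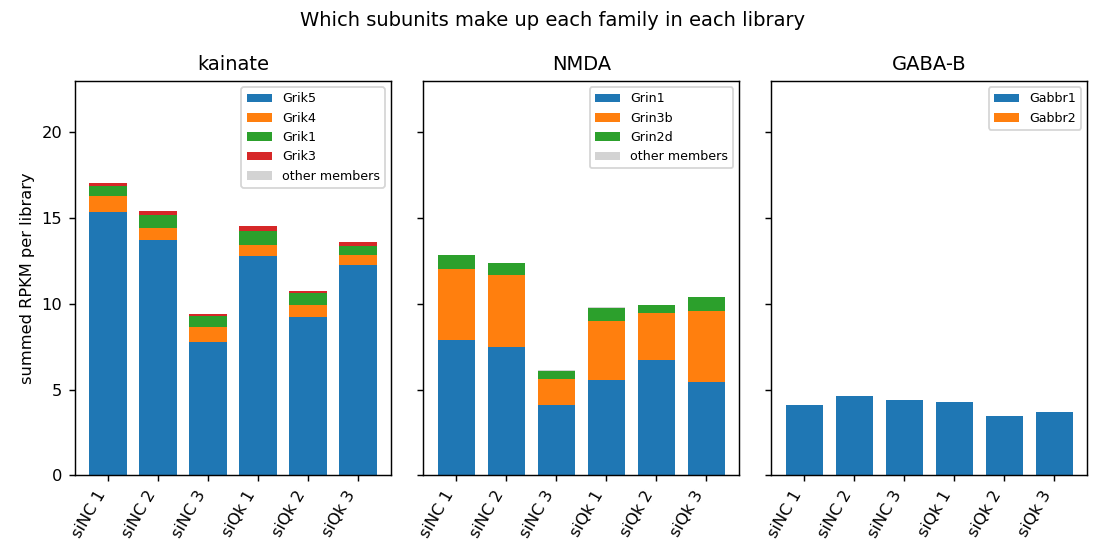
Stacked bars give the summed RPKM of 3 receptor families in each of the 6 libraries, with the leading subunits in colour and the remaining members in grey. Grik5, Grin1 with Grin3b, and Gabbr1 fill most of each bar, and siNC replicate 3 has the lowest kainate and NMDA bars, at 9.41 and 6.12 RPKM.

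AMPA receptors, which carry most fast excitation in the brain and spinal cord, had almost no transcript. Gria1, Gria3 and Gria4 were at 0 in all 6 libraries, with upper limits of 0.00179, 0.00121 and 0.00176 RPKM. Gria2, which encodes GluA2 and lies at chr3:80681450-80802835, gave 1 count, in siNC replicate 2. The delta receptor gene Grid1 was at 0 throughout. A difference between siNC and siQk in these genes was not detectable at this depth.

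No metabotropic glutamate receptor gene passed the filter. Grm2, a group II receptor that lowers cyclic AMP, had 5 to 26 counts per library and averaged 0.0864 RPKM. Grm3, Grm4, Grm5, Grm7 and Grm8 gave 1 to 7 counts each over all libraries, and Grm6, the receptor of retinal bipolar cells, gave 0. The summed level of the family was 0.209 ± 0.0539 RPKM in siNC and 0.183 ± 0.0574 in siQk (SD, n = 3 each, p = 0.7, exact permutation test).

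The GABA-B receptor works as a pair, in which GABBR1 binds GABA and GABBR2 couples to the G protein and brings the pair to the cell surface. Gabbr1, at chr17:37045966-37075067 on the plus strand, measured 4.09, 4.60 and 4.38 RPKM in the siNC replicates and 4.27, 3.46 and 3.70 RPKM in the siQk replicates. It was the steadiest of the tested receptor genes, with the highest library 1.33 times the lowest. All siQk libraries lay below the siNC mean, though 1 of them lay above the lowest siNC library. The log2 fold change was −0.22 (SE 0.10, 95% interval −0.51 to 0.07, unadjusted p = 0.256, adjusted p = 0.9996).

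Gabbr2, at chr4:46662305-46991873, gave 10 counts over the 6 libraries against 6569 for Gabbr1. It had 0 to 3 counts per library, and its share of the summed GABA-B RPKM did not exceed 0.403%. The partners of this receptor therefore stood far apart in level in both groups.

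GABA-A receptors are usually built from α, β and γ or δ subunits, with the GABA site between α and β. Gabrd, which encodes the δ subunit of receptors outside synapses and lies at chr4:155384980-155398112 on the minus strand, measured 0.585, 1.42 and 1.49 RPKM in the siNC replicates and 1.37, 1.40 and 1.004 RPKM in the siQk replicates. siNC replicate 1 stood below the other libraries, and the log2 fold change was 0.09 (SE 0.46, 95% interval −1.19 to 1.36). This value was −0.24 without siNC replicate 1 and 0.34 without siNC replicate 3.

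The α subunit gene Gabra5 stayed under the filter, with 40, 49 and 29 counts in the siNC replicates and 37, 10 and 23 in the siQk replicates. Gabra2 and Gabra4 gave 30 and 23 counts over all libraries, and Gabra3 and Gabra6 were at 0. The γ genes Gabrg1 and Gabrg3, the ε gene Gabre and the π gene Gabrp were also at 0, with upper limits between 0.00146 and 0.00343 RPKM. The β genes Gabrb1 and Gabrb2 gave 4 and 2 counts. Gabrq, the θ gene, gave 2 counts. The ρ genes, known from the retina, were low, at 78 counts for Gabrr1, 27 for Gabrr2 and 2 for Gabrr3.

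Gabrd made up 11.6% to 28.8% of the summed GABA-A RPKM. The share of Gabra5 was 5.84%, 5.62% and 4.89% in the siNC replicates and 4.20%, 0.928% and 3.04% in the siQk replicates. These groups did not overlap, and the difference of −2.73 percentage points had the smallest p the design allows (p = 0.1, exact permutation test, adjusted p = 1.0 over the 16 NMDA and GABA-A shares tested). The RPKM of Gabra5 itself overlapped between the groups. Summed over GABA-A genes, siNC reached 5.69 ± 1.03 RPKM and siQk 6.96 ± 0.732 (SD, n = 3 each, p = 0.2, exact permutation test, adjusted p = 0.6 over 6 families).

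Glycine receptor genes were at the limit of detection. Glra4 gave 51 of the 65 counts and Glra2 9. Glra1, the adult spinal α1 subunit, gave 2 counts, and Glrb, the β subunit that anchors the receptor to gephyrin, gave 3. Glra3 was at 0. The summed level was 0.0962 ± 0.0549 RPKM in siNC and 0.163 ± 0.0438 in siQk (SD, n = 3 each, p = 0.3, exact permutation test).

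In order of mean level, the tested receptor genes named here ran Grik5, Grin1, Gabbr1, Grin3b, Gabrd, Grik4, Grin2d, Grik1 and Grik3. Grik5 exceeded Grin1 in 6 of 6 libraries, by 1.37 to 2.3 times. Grin1 exceeded Gabbr1 except in siNC replicate 3, where they measured 4.07 and 4.38 RPKM. Gabbr1 exceeded Grin3b in 4 of 6, so these genes were not separated beyond their spread. Grin3b exceeded Gabrd in 6 of 6, by 1.02 to 7.02 times. Gabrd exceeded Grik4 in 5 of 6 libraries. Grik4, Grin2d and Grik1 were likewise not separated, whereas Grik1 exceeded Grik3 in 6 of 6.

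Across all 12665 tested genes, Qk was the only gene called by the quasi-likelihood test at p under 0.01 and adjusted p under 0.1 (0.0079% of the genes). Of the 10 receptor genes, 0 were called. Over all genes, edgeR's exact and likelihood-ratio tests each called 5 and DESeq2 called 19. At the same cutoffs, the authors' paper reports L3hypdh, Daam2 and Snap23 as down-regulated besides Qk. An unadjusted p under 0.05 was reached by 366 genes (2.89%) and by 0 receptor genes, and edgeR's exact and likelihood-ratio tests and DESeq2 also called 0 receptor genes, with 0 at an unadjusted p under 0.05. The count of 366 was 562 without siNC replicate 3 and 786 without siQk replicate 2 as well. The siNC and siQk ranges did not overlap for 1119 genes (8.84%) and for 0 receptor genes. Applied to 10 genes, each of these shares amounts to fewer than 1 gene. Of the 10, 6 were lower and 4 higher after KD, and their log2 fold changes had a median of −0.008 against 0.0034 over all tested genes. The 95% intervals had a median width of 1.7 on the log2 scale, against 1.19 over all tested genes, so smaller differences were less detectable here than for a typical gene.

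**Figure D3:**
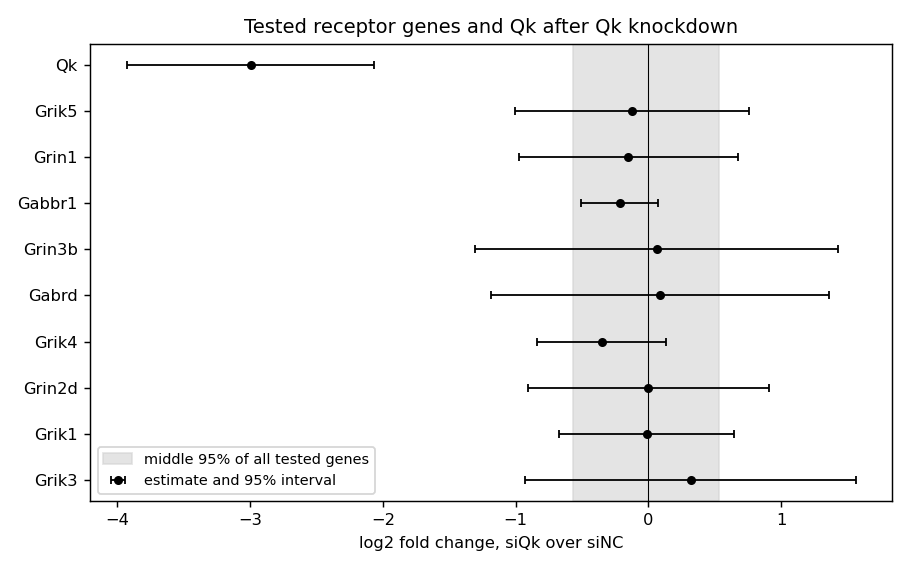
The log2 fold change of siQk over siNC is drawn for Qk and 9 tested receptor genes, with bars for 95% intervals and a grey band for the middle 95% of all tested genes, from −0.57 to 0.53. Qk lies at −2.997 with its whole interval below 0, and each receptor interval shown includes 0.

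The low values of siNC replicate 3 ran through several receptor genes. It was the lowest library for 4 of the 10 tested receptor genes (40.0%), among them Grik5, Grin1 and Grin3b, against 30.9% of all tested genes. siNC replicate 1 was the highest library for 4 of the 10 (40.0%), against 18.8% of all tested genes, and siQk replicate 2 the lowest for 3 (30.0%), against 21.8%. Tubb3, the neuronal tubulin, measured 347, 318 and 142 RPKM in the siNC replicates and 349, 186 and 319 in the siQk replicates. Phox2a, a factor of sympathetic neurons, measured 150.3, 152.9 and 50.2 RPKM in the siNC replicates and 134, 102 and 128 in the siQk replicates. Not every neuronal gene was low in siNC replicate 3, which was the lowest library for 4 of 8 tested pan-neuronal markers and 4 of 7 sympathetic neuroblastoma markers. Elavl4, a neuronal RNA-binding protein, measured 21.3, 25.1 and 26.5 RPKM in the siNC replicates, and Hand2 measured 151.8, 205.0 and 171.7. Gabbr1 in siNC replicate 3 lay between its values in the other siNC libraries. Without siNC replicate 3, the log2 fold change of Grin1 was −0.38, and it was −0.48 without siQk replicate 2 as well. Both fits put Grin1 at an unadjusted p under 0.05, with no receptor gene called, and 1 receptor gene reached it without siNC replicate 2. Without siNC replicate 3, the log2 fold change was −0.35 for Grik5, −0.27 for Grin3b and 0.34 for Gabrd, and −0.33 for the summed NMDA level. Of these, Grin3b changed sign, and Grik5, Gabrd and the NMDA sum moved further from 0.

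**Figure D4:**
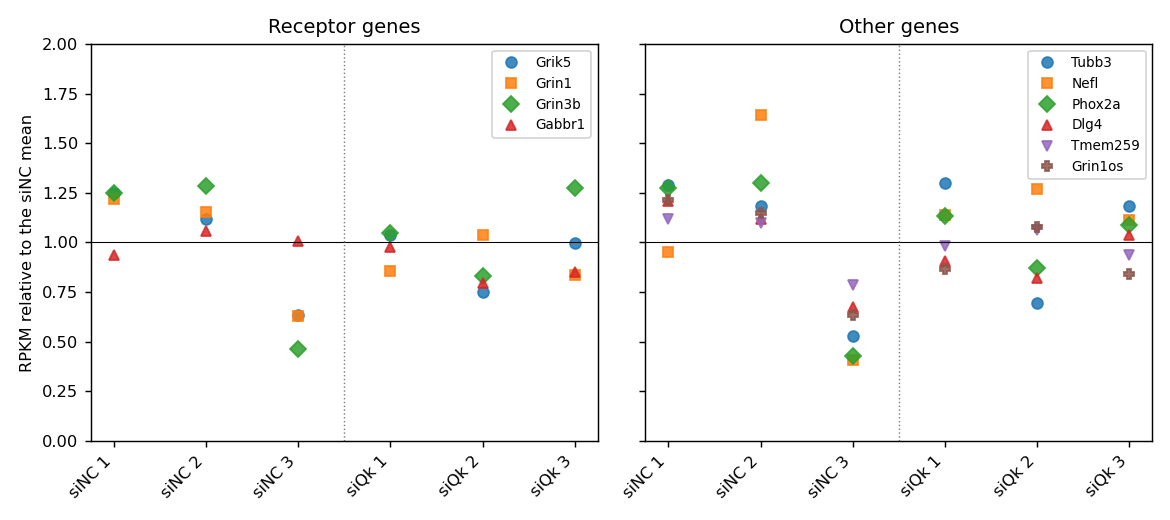
RPKM relative to the siNC mean is shown per library for 4 receptor genes on the left and for neuronal, scaffold and overlapping genes on the right, with the value 1 as the siNC mean. In siNC replicate 3, Grik5, Grin1 and Grin3b sit below 1 together with Tubb3, Nefl, Phox2a and Dlg4, which were picked for this after their values were seen, while Gabbr1 sits near 1. Of the tested pan-neuronal and sympathetic markers, 4 of 8 and 4 of 7 were lowest in that library.

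Most genes for proteins that work with these receptors passed the filter. Of 17 auxiliary subunits of AMPA, kainate and NMDA receptors, 11 were tested, 0 were called and 0 had an unadjusted p under 0.05. Cacng7, an AMPA receptor regulatory protein of the stargazin family, averaged 62.9 RPKM, and Nptxr, the neuronal pentraxin receptor, averaged 16.9 RPKM. Not all were present, since the AMPA receptor partners Cnih3, Shisa6 and Nptx2 were at 0 in all libraries and Shisa9 averaged 0.0624 RPKM. The smallest unadjusted p-values in this list were those of Cacng8 (log2 fold change 0.35, SE 0.35), Cacng5 (0.29, SE 0.30) and Cacng2 (−0.23, SE 0.24). Neto1, a kainate and NMDA receptor partner, was at 0, and Neto2 did not exceed 0.00357 RPKM.

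The scaffolds of excitatory synapses were represented by 20 listed genes, of which 18 were tested, 0 were called and 0 had an unadjusted p under 0.05. Dlg4, which encodes PSD-95, averaged 25.8 RPKM, and Grip1, an AMPA receptor-binding scaffold, averaged 25.2 RPKM. Camk2a, the α subunit of CaM kinase II, had the smallest unadjusted p of the list (0.118, log2 fold change −0.46, SE 0.35). Pick1 (−0.23, SE 0.15) and Homer3 (0.25, SE 0.24) followed.

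On the inhibitory side, 14 of 19 scaffold, trafficking and GABA-B auxiliary genes were tested and 0 were called. Gabarap, a ubiquitin-like protein that binds GABA-A receptors, averaged 99.7 RPKM, and Hap1, a trafficking adaptor, averaged 46.1 RPKM. Plcl2, which encodes a GABA-A receptor-interacting protein related to phospholipase C, had the one unadjusted p under 0.05 in the list. It measured 28.2, 38.7 and 24.4 RPKM in the siNC replicates and 23.9, 15.0 and 24.4 RPKM in the siQk replicates (log2 fold change −0.55, SE 0.29, unadjusted p = 0.0406, adjusted p = 0.9996). Gphn, which encodes gephyrin, the anchor of glycine and GABA-A receptors, averaged 27.2 RPKM in siNC and 21.9 in siQk (log2 fold change −0.34, SE 0.18, unadjusted p = 0.0960). Kctd12, a GABA-B auxiliary subunit, averaged 1.14 RPKM in siNC and 0.883 in siQk without overlap (log2 fold change −0.40, SE 0.13, unadjusted p = 0.127), and Zdhhc3 was the other of 2 genes without overlap among the 14 tested, where 8.84% of all tested genes did not overlap.

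For synthesis and transport of the transmitters, 13 of 24 genes were tested and 0 were called. Glul, the glutamine synthetase that converts glutamate to glutamine, measured 32.0, 24.5 and 21.2 RPKM in the siNC replicates and 30.6, 44.9 and 33.6 RPKM in the siQk replicates. It had the one unadjusted p under 0.05 of this list (log2 fold change 0.47, SE 0.23, unadjusted p = 0.0466, adjusted p = 0.9996), and the groups overlapped. Slc6a9, the glycine transporter GlyT1, had a log2 fold change of −0.45 (SE 0.38), and Abat, which breaks down GABA, one of −0.30 (SE 0.43).

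**Figure D5:**
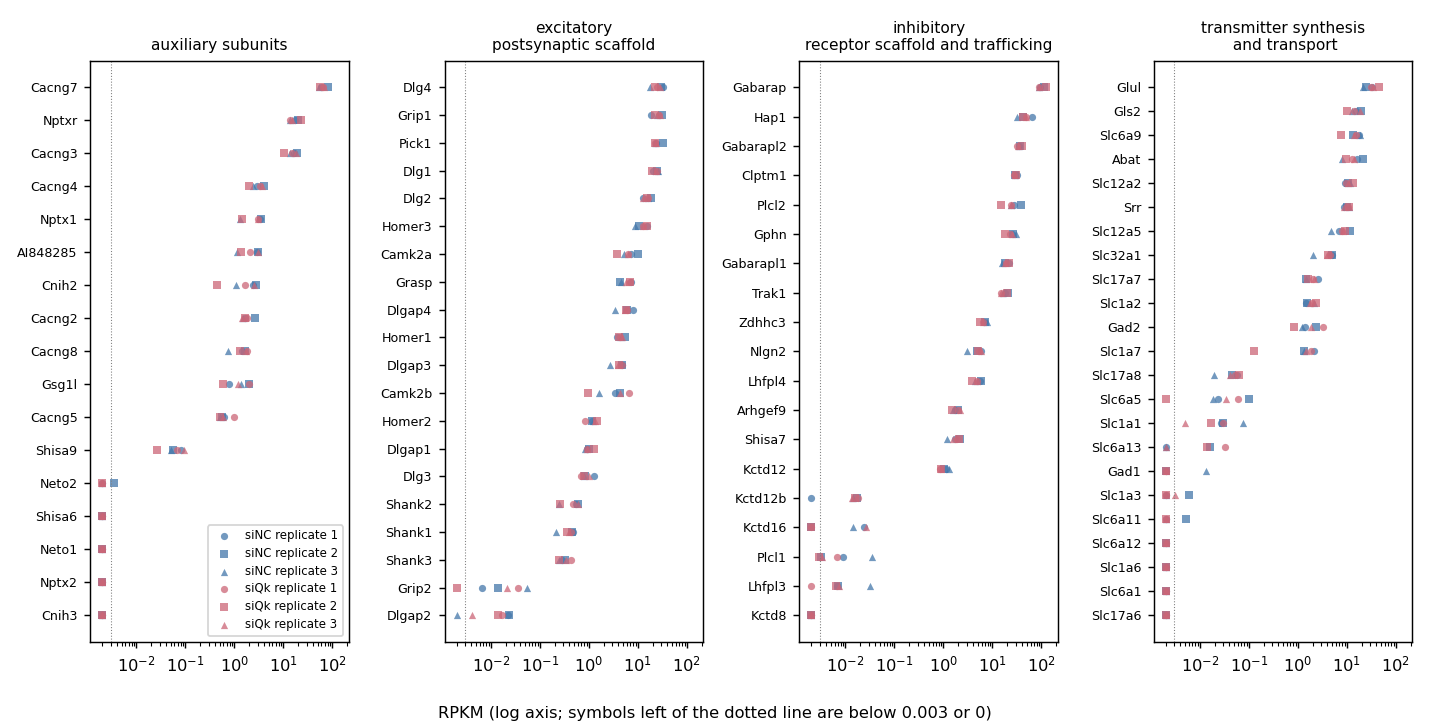
RPKM on a log axis is shown per library for genes of the 4 lists of receptor partners, with siNC in blue and siQk in red and values under 0.003 RPKM set left of the dotted line. Cacng7, Dlg4, Gabarap and Glul lie between 25.8 and 99.7 RPKM on average, and the blue and red symbols of most genes overlap.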

How the data were processed

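Poly-A RNA of 3 siNC and 3 siQk NSC-34 cultures was sequenced by the authors as 75-base read pairs, which OLego mapped and Quantas turned into gene counts, with program versions not given in the sources used here. The build is mm10 per the labels. The deposited tables hold an estimated count per gene from the authors' counting program, of which 21.9% to 22.9% were not whole, and an RPKM computed by the authors, which was rebuilt from count, exon length and library total.

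Counts were rounded and tested in edgeR 4.0.16 (R 4.3.3, limma 3.58.1) with the quasi-likelihood test after TMM scaling, over the 12665 genes with mean log2 CPM above 0, with Benjamini-Hochberg adjustment over these genes. A call needed p under 0.01 and adjusted p under 0.1. SEs and 95% intervals came from TMM-scaled log2 CPM (prior count 2) with 4 residual degrees of freedom. They did not come from the quasi-likelihood test that gave the p-values, so the interval and the p-value of a gene can disagree. Summed RPKM and shares were compared by exact permutation over 20 arrangements. Limits for genes at 0 took 3 counts over all libraries and cover counting error only. The labels call the samples biological replicates.

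Same-numbered siNC and siQk libraries deviated together with correlations of 0.213, 0.018 and −0.17, and they were treated as unpaired. Alternatives were other scalings and filters, edgeR's exact and likelihood-ratio tests, DESeq2 1.42.0, a block for the replicate number, each library left out in turn, and, chosen after seeing the data, leaving out siNC replicate 3 and siQk replicate 2 together. Gene positions came from GENCODE M21 (GRCm38), matched by Entrez number for all 52 receptor genes, and promoters from RefSeq, which held 43 windows. The members and all lists were chosen with earlier results of these data known. Receptor genes are named, with values per library for the leading gene of each family with a tested gene, except some genes that are not reported here, though counts, sums and fits include them. Grin3b, Gabrd, Gabra5 and the marker genes shown per library were chosen after their values were seen, and partner lists are given by their 2 highest genes and up to 3 smallest p-values. Of the tests, only the edgeR quasi-likelihood test was checked on simulated data, with changes larger than those of the receptor genes. Its power for smaller changes and the other tests were not checked in this way.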

Additional observations from a re-analysis of the deposited data

How the results depend on the processing

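No receptor gene was called under any of 16 alternatives, and the lowest adjusted p of a receptor gene was 0.7924. Without any filter 34 receptor genes were tested, and with filterByExpr 15. Over all genes, the count called was 5 with edgeR's exact test, 5 with the likelihood-ratio test, 19 with DESeq2 and 0 to 1 with a library left out. The genes at an unadjusted p under 0.05 numbered 292 to 562 with a library left out, 589 without a filter, where 17986 genes were tested, and 786 in the 4 libraries. The log2 fold change of Qk was −2.95 with a replicate block and −3.19 to −2.67 with a library left out, and without siNC replicate 1 (−3.09, adjusted p = 0.125) it was not called. Of 160 refitted fold changes of receptor genes 15 changed sign, in 6 genes, and those of Gabbr1, Grik3 and Grik4 did not. With a library left out, Grik3 ran from 0.048 (without siQk replicate 1) to 0.63 (without siQk replicate 2), Grik4 from −0.51 to −0.24 and Gabbr1 from −0.31 to −0.15.

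With a library left out, the log2 fold change ran from −0.24 to 0.34 for Gabrd, −0.18 to 0.14 for Grik1, −0.35 to 0.066 for Grik5, −0.38 to 0.0125 for Grin1, −0.16 to 0.21 for Grin2d and −0.27 to 0.26 for Grin3b, and for summed levels from −0.32 to 0.063 (kainate), −0.33 to 0.12 (NMDA) and −0.35 to 0.0495 (metabotropic). The difference in share ran from −0.57 to 1.10 percentage points for Grin2d and from −6.72 to 1.87 for Gabrd. Scaling by total counts moved the median of all genes to 0.03 and gave 0.0089 for Grik1 and 0.016 for Grin2d, for which upper-quartile scaling gave 0.0026. In the 4 libraries, Grin2d was at 0.064 and Grin3b at −0.12. The summed NMDA level was at 0.0206 as a mean of logs and 0.0207 with a replicate block. The cause of these changes was not tested. With 3 libraries a group, family tests cannot pass 0.05, and 42 receptor genes were too shallow to test by the filter used.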

Other observations

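The letters ACTAAC, the core of the sequence bound by Quaking proteins, were looked for in the longest protein-coding transcript of each receptor gene in GENCODE M21, on the transcript's own strand. Introns were not searched, and copies of the related letters ACTAAT are not included in the counts below. They were present in 3 of the 10 tested receptor genes (30.0%), among them Gabbr1 and Grik3 with 1 copy each, and in 27.7% of the 11013 tested genes with such a transcript. Of the 42 receptor genes that were not tested, 20 (47.6%) held them. The median transcript length was 4762 bases for the tested receptor genes, 4699.5 bases for the untested ones and 3189 bases for all tested genes. Per 10 kb of transcript there were 0.623 copies in the tested receptor genes, 1.36 in the untested ones and 1.01 in all tested genes, so the order of the tested receptor genes and all tested genes differed between the share and the rate. A match is a description of the letters and not a binding site, and splicing, which these gene-level counts do not show, was not analysed here.

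Markers of other cell types were mostly low, with exceptions. Of the 6 microglia markers only Tmem119 was tested, and Cx3cr1 and P2ry12 were at 0. Of the 6 astrocyte markers only Slc1a2, a glutamate transporter, was tested, at 1.70 RPKM in siNC and 2.01 in siQk, and Aqp4 and Gja1 were at 0. Of the 8 oligodendrocyte lineage markers 4 were tested, among them Pdgfra (4.79 RPKM on average), Cspg4 and Mbp, while Olig1, Olig2 and Sox10 did not exceed 0.0318 RPKM. The summed level of the 8 was 9.5 to 11 RPKM in siNC and 6.98 to 10.7 in siQk. For the motor neuron markers it was 10.3 to 11.9 and 14.8 to 17.3 RPKM.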
